A study of Mus musculus with 12 samples.

Results

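The genes described here encode the subunits of the oxidative phosphorylation (OXPHOS) system of mouse liver mitochondria, and they were followed by complex and by genome of origin over 4 groups of mice. Members were the protein-coding genes of the count table whose symbols begin with Nduf followed by a, b, c, s or v, with Uqcr, with Cox4 to Cox8 or with Atp5, together with the 4 Sdh genes and the protein genes of the mitochondrial genome. This gave 107 of 55357 genes in the table, 94 encoded in the nucleus and 13 on the mitochondrial genome. By role, 89 were subunits (76 nuclear and 13 mitochondrial), 10 were assembly or associated factors that the symbols also captured (8 Ndufaf genes, Cox7a2l and Atp5s), and 8 were isoforms of complex IV known from restricted tissues. Ndufa4 was counted with complex IV, to which its protein belongs. Cyc1 and Usmg5 carry other symbols and were not taken in, and Ndufb1-ps and 12 pseudogenes were left out because they are not annotated as protein coding. Of the 107 members, 103 had enough counts to be tested. The other 4 were Cox7b2 and a second identifier of Atp5o, both without a count, Cox8b, with 0 to 4 counts per library, and Cox8c, with 1 count in all.

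Liver RNA of 12 male C57BL/6J mice was sequenced. All mice carried floxed Ppara alleles (PPARα fl/fl). The KO mice also carried the AlbuminCre transgene (Tg/+), whose albumin promoter limits the deletion to hepatocytes, and the WT mice did not (AlbuminCre +/+). Mice were 7 weeks old when they were given chow or CDAHFD, a high-fat diet that lacks choline and gives amino acids in place of protein, and 13 weeks old after 6 weeks on it. The groups held 4 WT chow, 2 KO chow, 3 WT CDAHFD and 3 KO CDAHFD libraries, whereas the study's methods describe groups of equal size, and the reason for the difference is not known here. Nothing in the labels ties the libraries to cages, litters or days, so the p-values measure the spread between these libraries. Since the libraries were made from whole liver, fewer cells of a type and less RNA per cell cannot be told apart.

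Complex I (NADH dehydrogenase) and complex II (succinate dehydrogenase) pass electrons to ubiquinone, complex III (cytochrome bc1) passes them on to cytochrome c, and complex IV (cytochrome c oxidase) passes them to oxygen. Complexes I, III and IV pump protons, and complex V (ATP synthase) uses the gradient to make ATP. Complexes I, III, IV and V are built from subunits of both genomes, whereas complex II is encoded in the nucleus alone. Hepatocytes burn fatty acids in these mitochondria, and PPARα is the nuclear receptor that drives the genes of fatty acid oxidation there.

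The nuclear subunit genes lie on many chromosomes, and the stretches around their start sites are a part of the DNA through which they could be read together. Only these stretches were searched. RefSeq promoters (GRCm38.p6, 250 bases before to 50 after the annotated start) were matched by symbol for 75 members, 63 of them subunit genes. The letters of the NRF1 motif (GCATGCGC, either strand) were present in 10 of these 63 promoters (15.87%), against 3.049% of all 27025 promoters and 5.231% of the 12139 promoters of tested genes. One promoter of each complex that holds the letters is shown, from 170 bases before to 5 bases from the start on, with the matched letters in capitals and longer capitals where matches on both strands overlap. They belong to Ndufa6 (chr15:82354287-82354461, minus strand), Sdhb (chr4:140961101-140961275, plus strand), Uqcr11 (chr10:80406817-80406991, minus strand), Cox6a1 (chr5:115348954-115349128, minus strand) and Atp5k (chr5:108434395-108434569, minus strand).
Ndufa6: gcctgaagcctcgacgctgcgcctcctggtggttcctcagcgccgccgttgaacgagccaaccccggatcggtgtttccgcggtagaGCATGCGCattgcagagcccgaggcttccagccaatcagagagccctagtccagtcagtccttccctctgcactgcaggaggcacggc
Sdhb: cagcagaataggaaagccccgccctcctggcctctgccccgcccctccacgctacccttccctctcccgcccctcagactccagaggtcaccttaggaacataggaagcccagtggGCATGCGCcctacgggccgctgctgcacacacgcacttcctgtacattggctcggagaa
Uqcr11: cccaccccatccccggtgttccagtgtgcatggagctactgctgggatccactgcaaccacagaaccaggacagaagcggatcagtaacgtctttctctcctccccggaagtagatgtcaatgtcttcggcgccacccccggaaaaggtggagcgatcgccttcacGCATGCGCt
Cox6a1: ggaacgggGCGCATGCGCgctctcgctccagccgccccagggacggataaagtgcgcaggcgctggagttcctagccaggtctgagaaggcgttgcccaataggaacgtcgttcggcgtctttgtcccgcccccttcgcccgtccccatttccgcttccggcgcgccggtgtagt
Atp5k: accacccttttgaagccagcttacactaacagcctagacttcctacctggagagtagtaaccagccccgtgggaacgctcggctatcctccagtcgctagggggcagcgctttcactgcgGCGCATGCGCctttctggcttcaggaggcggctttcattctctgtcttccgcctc
The other promoters with these letters were those of Atp5g2, Atp5l, Ndufa11, Ndufa8 and Uqcrc1. The letters of YY1 (AAGATGGCG) stood in 7 of the 63 promoters (11.11%, against 1.639% of all promoters and 3.081% of those of tested genes), and the letters of estrogen-related receptors (TCAAGGTCA) stood in 2, Atp5g3 and Sdhd (3.175%, against 0.4662% and 0.3378%). The letters of ETS factors (CCGGAAGT) were found in 5 (7.937%, against 4.307% of all promoters and 8.057% of those of tested genes), and those of SP1 (GGGGCGGGG) in 10 (15.87%, against 12.91% and 22.55%). The letters of a PPAR response element (a direct repeat of AGGTCA spaced by any 1 base) were found in 0 of the 63 promoters, against 0.0481% of all promoters and 0.0659% of those of tested genes, which says only that these letters are not in these windows. Each search covered both strands. A match of letters is a description and not a binding site.

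Libraries held 29906785 to 43551003 counts. Levels are given as CPM, counts per 1000000 after scaling of the libraries with TMM, which sets the bulk of the genes equal between libraries. TMM factors ran from 0.729 to 0.827 in WT chow and from 1.03 to 1.26 in the other 8 libraries, so the choice of scaling weighed on every comparison with WT chow, and all changes below are relative to the other genes. With scaling by library size alone, the median log2 fold change of all 17358 tested genes against WT chow came to 0.40 in KO chow and to 0.51 and 0.57 in the CDAHFD groups of WT and KO mice, where TMM put it at 0.0022, -0.048 and -0.040. Ppara itself, the targeted gene, had 120, 96.2, 238 and 226 CPM in WT chow, against 14.4 and 38.7 in KO chow, 59.5, 75.5 and 73.5 in WT CDAHFD, and 36.3, 20.7 and 51.9 in KO CDAHFD. The KO libraries were below the WT libraries on each diet. The WT chow libraries also fell into 2 pairs by clock genes. A score of clock genes, the mean log2 CPM of Dbp, Tef, Per3, Ciart and Nr1d2 minus that of Arntl, Npas2, Clock and Nfil3, was -3.94, -3.66, 2.30 and 2.11 in WT chow, -3.18 and 0.70 in KO chow, -1.63, -2.48 and -2.31 in WT CDAHFD, and -2.08, -1.98 and 3.41 in KO CDAHFD, and the WT chow pair with the higher scores had the higher Ppara. Ppara fell by 2.68 on the log2 scale in KO chow (SE 0.504, adjusted p = 0.00111) and by 1.29 in WT CDAHFD (SE 0.399, adjusted p = 0.0163), and its difference between KO and WT on CDAHFD was -0.94 (SE 0.417, adjusted p = 0.547). Here and below, adjusted p is that of edgeR's quasi-likelihood test over all 12 libraries after Benjamini-Hochberg adjustment over all tested genes, and a gene is called where it is under 0.05.

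Markers of the cell types of liver also differed from WT chow. Hepatocyte markers were lower for 5 of 8 genes in KO chow and for 8 of 8 in both CDAHFD groups, with a summed level of 90028 to 107025 CPM in WT chow, compared with 75769.5 to 88282 in KO chow, and on CDAHFD 47873 to 57117 in WT and 45177 to 59567 in KO mice. Macrophage markers were higher for 9, 8 and 8 of 10 genes (KO chow first, then WT and KO mice on CDAHFD, 353 to 644 CPM in WT chow against 1266 to 2205 in the other libraries), stellate cell markers for 5, 5 and 6 of 8, cholangiocyte markers for 4, 5 and 5 of 5, and lymphocyte markers for 3 of 7 each time. Endothelial markers gave 1 of 7 higher in KO chow and 3 lower in each CDAHFD group. Of all genes, 17%, 25% and 25.4% were called lower and 22%, 26.1% and 26.9% higher, in the same order of groups. With scaling by library size alone, hepatocyte markers gave 0 lower and 1 higher in KO chow and 6 and 5 lower in the CDAHFD groups. Endothelial markers then gave 0 lower and 1, 1 and 2 higher, and macrophage markers stayed higher for 10, 9 and 9. Of all 17358 tested genes, that scaling called 8186, 10262 and 10870, of which 1149, 1170 and 1095 were lower and the rest higher. Muscle and fat markers summed to 0.0667 to 0.311 CPM in all 12 libraries. The part of these cell types in the OXPHOS results was not tested.

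Summed over the 76 nuclear subunit genes, the level was 13759.5, 16697, 15461 and 15359 CPM in WT chow. It was 11699 and 10445 CPM in KO chow, 9340.5, 8197 and 9768 in WT CDAHFD, and 9599, 10590.3 and 8087 in KO CDAHFD. Each library of the other 3 groups lay below each WT chow library, and both KO chow libraries lay above all WT CDAHFD libraries. Relative to the WT chow mean, KO chow stood at 72.3%, and CDAHFD stood at 59.4% in WT and 61.5% in KO mice. As a share of all counts, without any scaling, the nuclear members made up means of 1.21%, 1.17%, 1.07% and 1.14% of WT chow, KO chow, WT CDAHFD and KO CDAHFD libraries, so that their fall is one relative to the bulk of genes and hardly shows as a share of counts.

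The 13 mitochondrial genes together took more counts than all nuclear members. Their summed level was 61689.7, 76746, 68469.9 and 84450.1 CPM in WT chow, against 33654 and 43018 in KO chow, 31145, 28884 and 33441.5 in WT CDAHFD, and 27623, 31166.5 and 32009 in KO CDAHFD. No library of the other groups reached the lowest WT chow library. Relative to the WT chow mean, KO chow stood at 52.6%, and CDAHFD stood at 42.8% in WT and 41.6% in KO mice. The fall was present in shares of counts as well: mitochondrial protein genes took 5.65% ± 0.514 (SD, n = 4) of counts in WT chow, 3.95% ± 0.653 (n = 2) in KO chow, 3.58% ± 0.215 (n = 3) in WT CDAHFD and 3.61% ± 0.382 (n = 3) in KO CDAHFD. The ratio of mitochondrial to nuclear subunit CPM was 4.48, 4.60, 4.43 and 5.50 in WT chow and 3.33, 3.52 and 3.42 in WT CDAHFD. In KO chow it was 2.88 and 4.12, and in KO CDAHFD 2.88, 2.94 and 3.96. All 8 ratios lay below the 4 of WT chow.

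**Figure D1:**
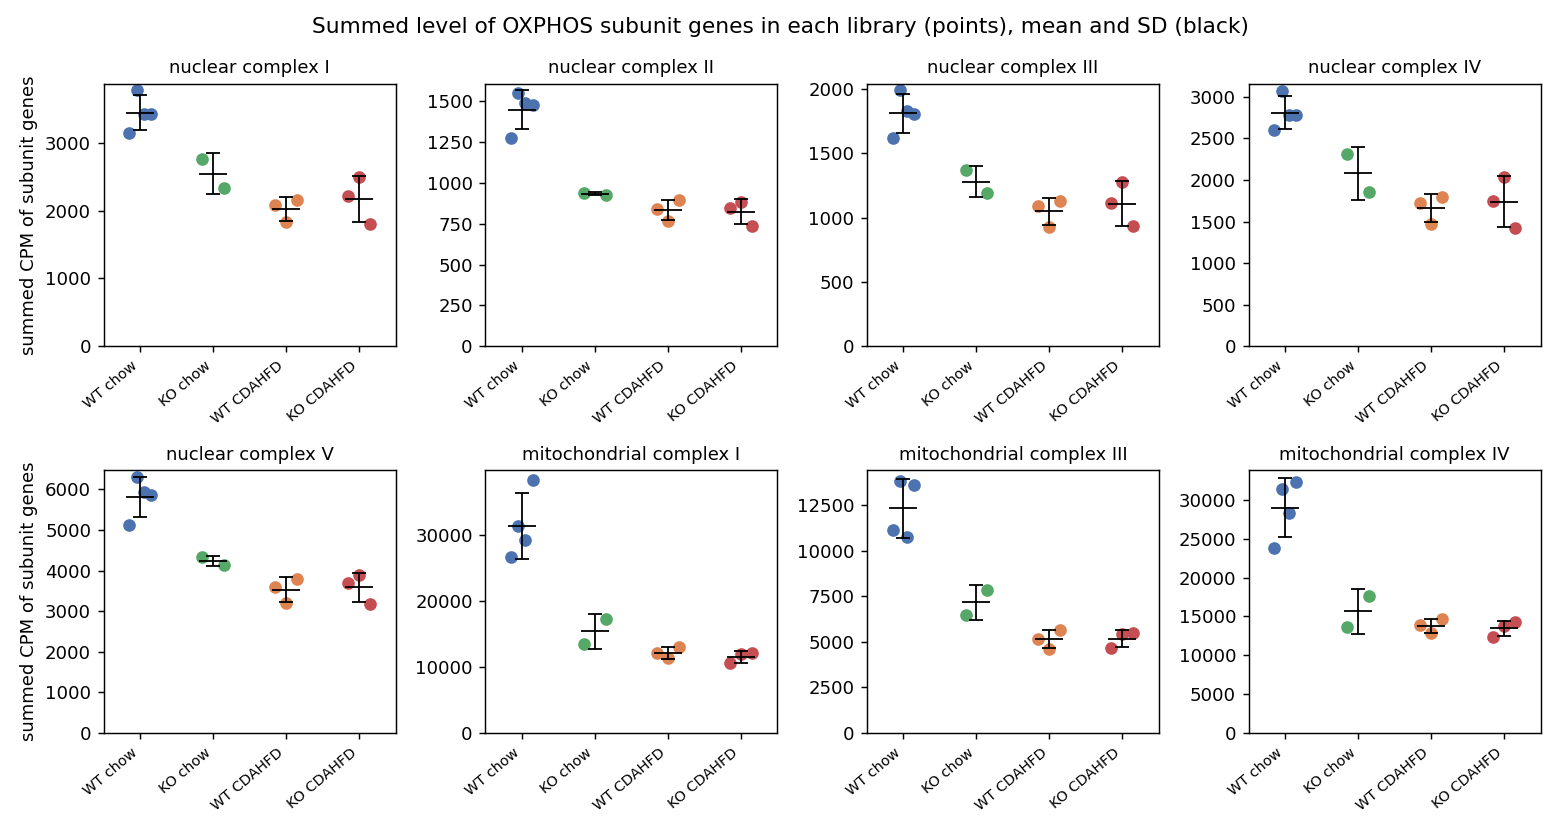
Each panel gives the summed CPM of the subunit genes of 1 complex and genome on a vertical axis from 0, with 1 point per library for the 4 groups and black marks for the mean and SD. In the nuclear panels the KO chow mean lies between WT chow and the CDAHFD groups (64.4% of WT chow in complex II, 74.0% in complex IV). The mitochondrial means of complexes I, III and IV are lower fractions of WT chow than the nuclear ones (complex I at 49.2%, 38.8% and 36.7% in KO chow and the CDAHFD groups of WT and KO mice). Mitochondrial complex V has no panel. Its sum stands at 68.9%, 61.3% and 67.5% of WT chow, against 72.9%, 60.8% and 61.7% for the nuclear subunits of complex V. That sum includes mt-Atp6, which shares 99.53% of its windows of 50 bases with other genes, so it cannot be compared with the other sums.

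Each of the other 3 groups was compared with WT chow, to ask what goes with loss of PPARα (KO chow), with the diet (WT CDAHFD) and with both (KO CDAHFD). Triplets of values below keep this order. They share the 4 WT chow libraries, so their likeness is not independent. In KO chow, 51 of 103 members were lower and 3 higher, where 17% and 22% of all genes were called lower and higher, and the members' median log2 fold change was -0.44 against 0.0022 for all genes. In WT CDAHFD, 89 members were lower and 2 higher (all genes 25% and 26.1%), with a median of -0.76 against -0.048. In KO CDAHFD, 86 were lower and 2 higher (all genes 25.4% and 26.9%), with a median of -0.66 against -0.040. With scaling by library size alone the calls were 8 lower and 6 higher in KO chow, 24 and 4 in WT CDAHFD, and 14 and 7 in KO CDAHFD, where 14.0%, 11.4% and 10.1% of all calls were lower. Under that scaling the medians were -0.04, -0.22 and -0.08 for nuclear subunits and -0.37, -0.51 and -0.49 for mitochondrial genes. Each of the 75 tested nuclear subunits lay below the median gene in the 3 comparisons under either scaling. A change of scaling moves all genes of a comparison by nearly the same amount, so this position is no test of the scaling. Without the second KO chow library the members called in KO chow dropped from 54 to 18. With the clock score as a covariate the calls were 66 lower and 3 higher in KO chow, 90 and 2 in WT CDAHFD, and 88 and 2 in KO CDAHFD. Over all genes that fit called 7618, 9618 and 9884, of which 3469, 4766 and 4951 were lower.

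Of the 75 tested nuclear subunits, KO chow had 42 lower, WT CDAHFD all 75 and KO CDAHFD 74, and 0 were higher. Their log2 fold changes spanned -1.04 to -0.08 in KO chow (median -0.44), -1.18 to -0.38 in WT CDAHFD (median -0.78) and -0.99 to -0.30 in KO CDAHFD (median -0.68). With scaling by library size alone, 2, 15 and 6 of the 75 were lower and 1, 0 and 1 higher. Of all 17358 tested genes, 1149, 1170 and 1095 were lower under that scaling. The counts by complex below are those with TMM. The libraries did not overlap with WT chow for 66, 75 and 74 of the 75. Here and below, the share of all genes whose libraries do not overlap was not counted, and with few libraries some genes separate by order alone. Every one of the 75 had its highest group mean in WT chow, 74 had a KO chow mean above both CDAHFD means, and 65 had a higher mean in KO CDAHFD than in WT CDAHFD. The 75 share the same libraries and are not independent, and shares over all genes were not counted. Between KO and WT on CDAHFD, 14 lay below the median gene. That number was 40 without the second KO CDAHFD library, 30 without the second WT CDAHFD library and 5 without the third KO CDAHFD library.

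**Figure D2:**
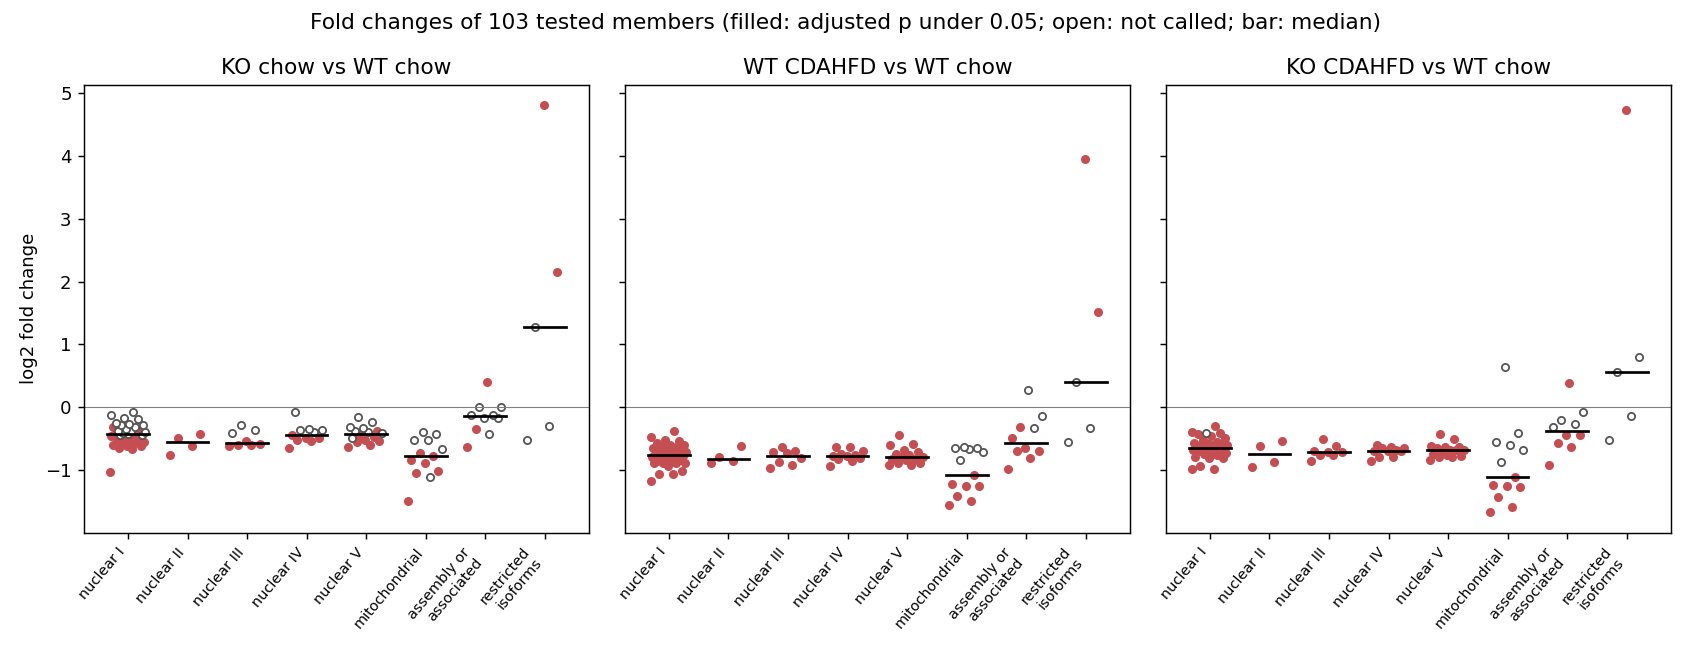
Log2 fold changes against WT chow on the vertical axis for the 103 tested members, by complex and genome, with 1 panel per comparison. Filled points are called, open points are not, and bars are medians. The nuclear subunits of complexes I to V form bands of similar medians (-0.77, -0.83, -0.77, -0.78 and -0.79 in WT CDAHFD), while restricted isoforms reach above 0.

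Complex I, the largest of the complexes, was represented by 36 nuclear subunits. Of these, KO chow had 19 lower, WT CDAHFD 36 and KO CDAHFD 35, with median log2 fold changes of -0.42, -0.77 and -0.65. The exception in KO CDAHFD was Ndufa2. The 7 nuclear core subunits, which hold the flavin and iron-sulfur clusters or surround them, had medians of -0.42, -0.78 and -0.68 (5, 7 and 7 lower), and the 29 accessory subunits had -0.44, -0.75 and -0.61 (14, 29 and 28 lower). The summed level of the 36 genes was 73.9% of WT chow in KO chow, and with CDAHFD 58.8% in WT and 63.0% in KO mice.

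Ndufb3, an accessory subunit of the membrane arm, had the largest change of the nuclear subunits in KO chow. It was at 61.3, 75.9, 56.6 and 66.9 CPM in WT chow and 35.2 and 28.3 in KO chow, 30.4, 30.8 and 32.5 in WT CDAHFD, and 33.3, 39.4 and 26.5 in KO CDAHFD. The other 3 groups overlapped with each other and lay far below WT chow, with log2 fold changes of -1.04, -1.06 and -0.98 (SE 0.168, 0.145 and 0.145, adjusted p = 0.000369, 5.92e-05 and 0.000106). Ndufv1, the core subunit that binds NADH and FMN, was at 186, 220, 214 and 210 CPM in WT chow, against 139 and 122 in KO chow, 118, 99.5 and 119 in WT CDAHFD, and 121, 134 and 99.2 in KO CDAHFD. Its log2 fold changes were -0.67, -0.89 and -0.81, all called (adjusted p = 0.00237, 6.69e-05 and 0.000128). Ndufb10, a further accessory subunit, kept more of its level in KO chow (101 and 89.7 CPM) than in WT CDAHFD (65.9, 60.1 and 72.4), from 115, 157, 132 and 131 in WT chow. Its fold changes were -0.49, -1.02 and -0.70 (adjusted p = 0.0246, 5.69e-05 and 0.000877). Ndufb9 was named after its values were seen, as the nuclear subunit that fell furthest in WT CDAHFD. It had 106, 132, 111 and 121 CPM in WT chow and 51.1, 48.5 and 56.3 in WT CDAHFD, a fall by 1.18 (SE 0.157). Ndufb5, at 79.7, 94.3, 84.9 and 88.2 CPM in WT chow and 47.1, 43.8 and 49.996 in WT CDAHFD, shares 616 bases of exon with Mrpl47 on the opposite strand, and since the libraries did not keep the strand its counts are uncertain.

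Complex II was the one complex whose subunits, 4 in all, were each called lower in each of the 3 groups. In KO chow the calls on Sdhb and Sdhc were the weakest (adjusted p = 0.0309 and 0.0242). That on Sdhb was lost without the second or the third WT chow library. With scaling by library size alone, 2 of the 75 nuclear subunits of all complexes were lower in KO chow. The order of the groups differed among the subunits of complex II. Sdha, the flavoprotein that oxidises succinate, had 661, 764, 783 and 790 CPM in WT chow, compared with 440 and 448 in KO chow, 434, 397 and 461 in WT CDAHFD, and 411, 393 and 363 in KO CDAHFD. KO chow was thus already within the range of WT CDAHFD. Sdha fell by 0.76 in KO chow (SE 0.121, adjusted p = 0.000329), by 0.80 in WT CDAHFD (SE 0.105, adjusted p = 4.23e-05) and by 0.95 in KO CDAHFD (SE 0.106, adjusted p = 9.62e-06). Sdhd, a membrane anchor, was at 244, 279, 257 and 269 CPM in WT chow and 176 and 167 in KO chow, 140, 135 and 151 in WT CDAHFD, and 143, 158 and 127 in KO CDAHFD, with changes of -0.62, -0.88 and -0.88. The iron-sulfur subunit Sdhb, whose promoter is shown above, was at 176, 257, 225 and 208 CPM in WT chow, against 154 and 155 in KO chow, 120, 105 and 132 in WT CDAHFD, and 140, 161 and 120 in KO CDAHFD. Unlike for Sdha, its KO chow libraries stayed above all WT CDAHFD libraries (-0.49, -0.86 and -0.62). Sdhc, the other anchor, had the smallest changes of the complex (-0.43, -0.63 and -0.54), from 197 to 250 CPM in WT chow to 129 to 172 in the other groups, and its change in KO CDAHFD was 0.063 with scaling by library size alone. The summed level of complex II was 64.4%, 57.6% and 56.8% of WT chow.

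Complex III had 8 nuclear subunits, of which 5 were lower in KO chow and 8 in each CDAHFD group (medians -0.57, -0.77 and -0.71). Uqcrh, the hinge protein near cytochrome c1, changed most of these 8 in WT CDAHFD. It was at 166, 199, 160 and 173 CPM in WT chow, compared with 147 and 117 in KO chow, 88.4, 81.4 and 98.5 in WT CDAHFD, and 93.0, 125 and 91.3 in KO CDAHFD. Its KO chow libraries lay between those of WT chow and WT CDAHFD without touching either, with changes of -0.40 (adjusted p = 0.0607), -0.97 (SE 0.141, adjusted p = 0.000101) and -0.76 (adjusted p = 0.000595). Uqcrb, which helps form the ubiquinone site, was at 136, 189, 158 and 164 CPM in WT chow and 122 and 89.1 in KO chow, and 70.7 to 112 in the CDAHFD libraries, and was called in all 3 (-0.62, -0.92 and -0.85). The core proteins Uqcrc1 and Uqcrc2 lost nearly as much in KO chow (-0.60 each) as in WT CDAHFD (-0.72 and -0.70) and KO CDAHFD (-0.71 and -0.77). Uqcrc2 had 222, 281, 256 and 265 CPM in WT chow, against 157 and 182 in KO chow, and 145 to 165 in the 6 CDAHFD libraries. Uqcr10, a small subunit, had the smallest change of the complex in WT CDAHFD (-0.63, adjusted p = 0.0055).

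Of the 11 nuclear subunits of complex IV, 6 were lower in KO chow and 11 in each CDAHFD group (medians -0.44, -0.78 and -0.69). Cox7b, a small subunit needed for assembly of the complex, was at 161, 212, 174 and 198 CPM in WT chow, compared with 131 and 108 in KO chow, 99.2, 85.1 and 106 in WT CDAHFD, and 102, 122 and 85.2 in KO CDAHFD. It was lower in each group (-0.64, -0.94 and -0.85, adjusted p = 0.00874, 0.000171 and 0.00034). Cox7a2, the liver isoform of subunit VIIa, was among the 5 of the 11 that were not called in KO chow. It had 142, 172, 146 and 141 CPM in WT chow and 166 and 117 in KO chow, which overlapped (-0.08, SE 0.161, adjusted p = 0.712), and 85.5, 76.5 and 94.2 in WT CDAHFD and 88.8, 107 and 81.7 in KO CDAHFD, which lay below both chow groups (-0.81 and -0.70 against WT chow, adjusted p = 0.000471 and 0.00127). Cox7a2l, which links complexes III and IV into supercomplexes and is no subunit of complex IV alone, had 102, 115, 113 and 116 CPM in WT chow and 92.6, 86.6 and 88.6 in WT CDAHFD, a change of -0.32 (SE 0.108, adjusted p = 0.0261) that was 0.24 with scaling by library size alone (adjusted p = 0.0394). It was not called in KO chow (-0.12) or KO CDAHFD (-0.21).

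Of the 16 tested nuclear subunits of complex V, 8 were lower in KO chow and 16 in each CDAHFD group (medians -0.42, -0.79 and -0.69). Atp5a1, the α subunit of the catalytic head, had 1091.5, 1376, 1367 and 1322 CPM in WT chow and 802 and 850 in KO chow, 771, 680 and 791 in WT CDAHFD, and 754, 755 and 653 in KO CDAHFD. The 8 libraries outside WT chow differed little among themselves, with changes of -0.64, -0.79 and -0.84 (SE 0.135, 0.118 and 0.118, adjusted p = 0.00235, 0.000124 and 6.89e-05). Atp5o, the subunit that confers oligomycin sensitivity, fell by 0.92 in WT CDAHFD (SE 0.108, adjusted p = 1.67e-05), from 80.3, 102, 94.0 and 91.5 CPM to 51.4, 43.6 and 50.9. Atp5k, a dimer subunit of the membrane part whose promoter is shown above, went from 49.8, 71.2, 51.7 and 52.4 CPM in WT chow to 30.1, 24.0 and 35.4 in WT CDAHFD and 31.4, 38.8 and 27.4 in KO CDAHFD (-0.92 and -0.79, adjusted p = 0.00132 and 0.00325), with 47.3 and 32.9 in KO chow (-0.49, adjusted p = 0.0853). Atp5h changed by -0.89 in WT CDAHFD, Atp5l by -0.80 in KO CDAHFD and Atp5j by -0.60 in KO chow, the last with exons that overlap Gabpa on the opposite strand.

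Atp5g1, Atp5g2 and Atp5g3 encode the same mature c subunit of the proton-driven ring, and they differed in how much they fell. Atp5g1 was at 195, 215, 200 and 178 CPM in WT chow, against 157 and 141 in KO chow, 105, 98.1 and 125 in WT CDAHFD, and 134, 147 and 102 in KO CDAHFD (-0.40, adjusted p = 0.0549, then -0.85, adjusted p = 0.000224, and -0.63, adjusted p = 0.0019). Atp5g3 was at 338, 437, 442 and 393 CPM in WT chow, compared with 288 and 259 in KO chow, 249, 202 and 262 in WT CDAHFD, and 266, 282 and 201 in KO CDAHFD, and was called each time (-0.56, -0.76 and -0.69). Atp5g2 had the smallest change of the nuclear subunits of complex V in WT CDAHFD. It had 92.6, 102, 104 and 102 CPM in WT chow and 89.2 and 81.7 in KO chow, 79.0, 67.4 and 73.9 in WT CDAHFD, and 77.6, 81.9 and 65.3 in KO CDAHFD. No library overlapped with WT chow, and the changes were -0.23 (adjusted p = 0.141), -0.45 (adjusted p = 0.00303) and -0.42 (adjusted p = 0.00439), which became 0.11 and 0.19 in the CDAHFD groups with scaling by library size alone. Whether the 3 genes differ from each other in their change was not tested.

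The mitochondrial genome encodes 7 subunits of complex I, cytochrome b of complex III, 3 subunits of complex IV and 2 of complex V. Of the 13 genes, 7 were lower in each of the 3 groups, mt-Nd1, mt-Nd2, mt-Nd4, mt-Nd5, mt-Nd6, mt-Cytb and mt-Co1, and 0 were higher. The medians of the 13 were -0.78, -1.08 and -1.11. The 6 that were not called, mt-Co2, mt-Co3, mt-Atp6, mt-Atp8, mt-Nd3 and mt-Nd4l, had far fewer counts. Chromosome 1 of the reference holds a near-identical copy of a run of mitochondrial genes, and where windows of 50 bases are shared a read of that length cannot be assigned to 1 place. Of all such windows, 100% were shared with other genes for mt-Co2, 99.86% for mt-Co3, 99.53% for mt-Atp6, 98.79% for mt-Nd4l, 97.99% for mt-Nd3, 62.23% for mt-Nd4, 51.14% for mt-Co1, 8.19% for mt-Nd2 and 7.606% for mt-Nd5. The share was 0 for mt-Nd1, mt-Nd6, mt-Cytb and mt-Atp8, and copies of both neighbours of mt-Atp8 flank an unannotated stretch on chromosome 1. The 5 genes with at least 90% shared windows gave 0 calls in the 3 groups, and the other 8 gave 7 each time. Levels of the 5 cannot be compared with those of the other mitochondrial genes.

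**Figure D3:**
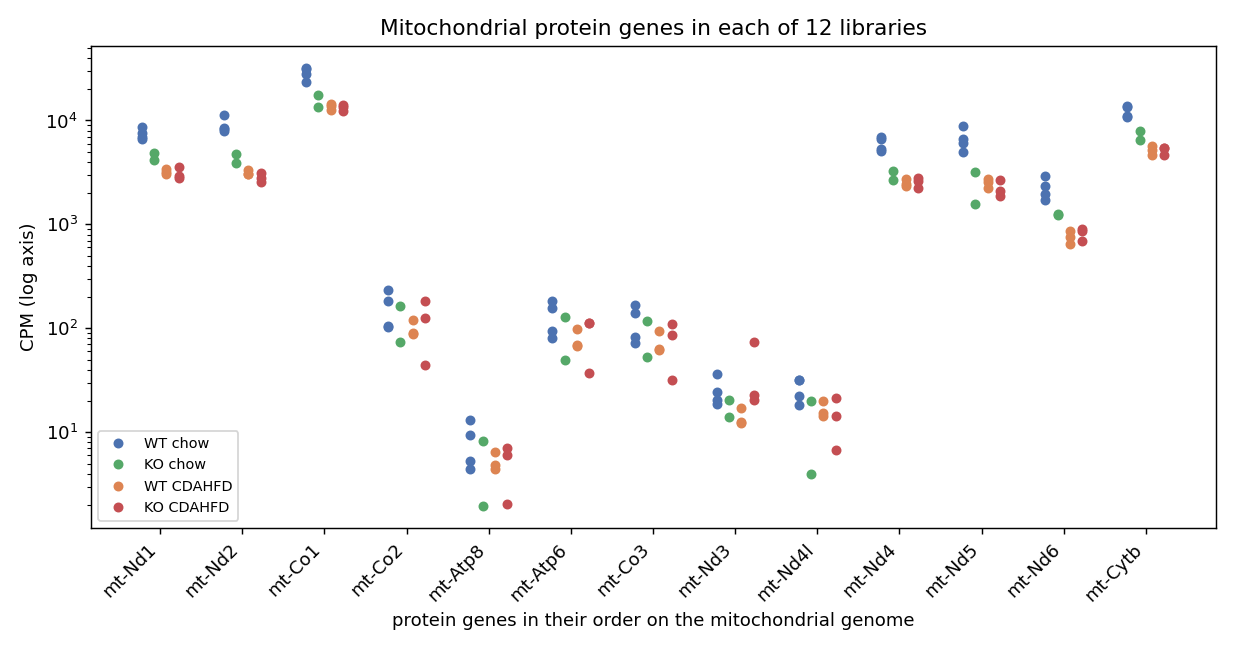
CPM on a log axis for the 13 mitochondrial protein genes in their order on the mitochondrial genome, 1 point per library in 4 groups. From mt-Co2 to mt-Nd4l the levels sit far below those of the genes on both sides (4.43 to 13.2 CPM for mt-Atp8 in WT chow against 23682 to 32088 for mt-Co1), and in mt-Nd1, mt-Nd2, mt-Co1, mt-Nd4, mt-Nd5, mt-Nd6 and mt-Cytb the WT chow points lie above the other groups.

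mt-Nd2, a membrane subunit of complex I, had the largest change of the mitochondrial genes in KO CDAHFD. Its level was 7859, 8273, 8529.6 and 11232 CPM in WT chow, against 3873 and 4752 in KO chow, 3087, 3082 and 3345 in WT CDAHFD, and 2537, 2796 and 3099 in KO CDAHFD. The groups followed each other with no overlap between chow and CDAHFD, and mt-Nd2 changed by -1.06, -1.5 and -1.67 (SE 0.175, 0.154 and 0.155, adjusted p = 0.00043, 5.05e-06 and 1.92e-06). mt-Nd1, its neighbour, was at 6685, 7630.1, 6959.9 and 8667 CPM in WT chow, compared with 4184 and 4855 in KO chow, 3187, 3035 and 3410.5 in WT CDAHFD, and 2943, 3565 and 2776 in KO CDAHFD (-0.73, -1.22 and -1.27). Both genes share few or none of their windows with other genes. mt-Cytb, the catalytic core of complex III, had 11105, 13803, 10769.9 and 13618 CPM in WT chow and 6483.5 and 7854 in KO chow, 5171, 4630.0 and 5625 in WT CDAHFD, and 4638, 5425 and 5458 in KO CDAHFD. It was lower in each group (-0.78, SE 0.168, then -1.26 and -1.25, SE 0.148 each) and, like mt-Nd1 and mt-Nd2, kept more of its level in both KO chow libraries than in any CDAHFD library.

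mt-Co1, the catalytic subunit of complex IV, alone took 37.996% to 44.6% of the mitochondrial protein counts. It was at 23682, 30999.8, 27984 and 32088 CPM in WT chow, against 13447 and 17404.5 in KO chow, 13682, 12669 and 14398 in WT CDAHFD, and 12312, 13420.1 and 14098 in KO CDAHFD, with changes of -0.90, -1.08 and -1.11 (adjusted p = 0.0015, 7.96e-05 and 5.83e-05). KO chow and the CDAHFD groups overlapped. mt-Nd4, another membrane subunit of complex I, changed by -1.01, -1.26 and -1.24. mt-Nd5 had 1557 and 3192 CPM in KO chow, against 4998, 6117, 6687 and 8926 in WT chow, 2571, 2219 and 2727 in WT CDAHFD and 2074, 1872 and 2678 in KO CDAHFD (-1.49, SE 0.296, then -1.42, SE 0.253, and -1.60, SE 0.255). mt-Nd6, on the other strand, overlaps the end of mt-Nd5 by 14 bases, and its changes of -0.85, -1.57 and -1.44 were taken from libraries that did not keep the strand.

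Gene mt-Nd3 and its copy Gm28438 show how close the copies are. Over the 345 bases aligned they differ at 1 base, T3C, counted from 1 at the first base of the gene. The first 60 bases, with the differing base in capitals, are given for mt-Nd3 (GRCm38, mitochondrial genome 9459 to 9518, plus strand) and for Gm28438 (chr1:24613060-24613119, minus strand).
mt-Nd3: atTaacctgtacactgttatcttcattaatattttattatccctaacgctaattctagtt
Gm28438: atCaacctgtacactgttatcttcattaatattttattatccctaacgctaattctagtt
Gm28661 (copy of mt-Co2), Gm10925 (mt-Atp6), Gm28437 (mt-Co3), Gm10222 (mt-Nd4l) and Gm28439 (mt-Nd4) had 0 differences over the lengths aligned. The count of the copy per count of the mitochondrial gene ran from 1.25 to 1.47 for mt-Atp6 over the 12 libraries, 1.01 to 1.36 for mt-Co2, 0.902 to 0.996 for mt-Co3 and 1 to 1.24 for mt-Nd4l. For mt-Nd3 the ratio ran from 0.0495 to 0.741. The first KO CDAHFD library held 3048 counts of mt-Nd3 and 151 of Gm28438, while the other 2 held 853 and 855 counts of mt-Nd3 and 483 and 542 of the copy. In CPM, mt-Nd3 was at 73.9, 22.8 and 20.3 in KO CDAHFD, 12.2, 12.5 and 17.3 in WT CDAHFD, 14.0 and 20.6 in KO chow, and 18.8, 36.1, 24.2 and 20.7 in WT chow. The first KO CDAHFD library alone stood above all others. Which base the reads of each library carried was not tested. The first and last WT chow libraries, the first KO chow library and the first KO CDAHFD library were lowest of their groups in mt-Co2 (104 and 105, 73.9, and 44.4 CPM, against 236 and 182, 164, and 185 and 126), and the same libraries were low in mt-Co3 and mt-Atp6.

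Where levels were set against each other per kilobase of exon in WT chow, the most abundant nuclear subunits were Cox6a1 (523 CPM per kb), Cox8a (416), Atp5a1 (411), Atp5b (400.2), the catalytic β subunit of complex V, and Cox4i1 (315). With the longest transcript as length Atp5b came first (885) and Cox4i1 second (638). The median per kilobase was 58.97 for the nuclear subunits of complex I, 139 for complex II, 182 for complex III, 217 for complex IV and 93.2 for complex V, against 18569 for mt-Co1 and 10773 for mt-Cytb. The lowest was Ndufb2 (1.86), which shares exon bases with Braf on the opposite strand.

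The members that went against the general direction were isoforms of complex IV that are known from muscle, lung or testis, and the associated factor Atp5s. Cox6a2, the heart and muscle isoform of subunit VIa, had 0, 0, 1 and 1 counts in WT chow, 25 and 22 in KO chow, 11, 24 and 14 in WT CDAHFD, and 31, 28 and 10 in KO CDAHFD. Its ratio of scaled counts to WT chow was 32.9 in KO chow (95% exact interval 8.62 to 280), 18.3 in WT CDAHFD (4.81 to 156) and 31.2 in KO CDAHFD (8.33 to 263), intervals that cover counting error only, and it was called higher in all 3 (adjusted p = 0.000412, 0.00112 and 0.000178). These are low levels, 0.225 to 0.752 CPM in the 8 libraries, and Cox6a2 shares 70 bases of exon with Itgad on the opposite strand. Cox4i2, the isoform known from lung, had 3, 1, 2 and 5 counts in WT chow and 16 and 21 in KO chow, a ratio of 4.71 (2.35 to 10.2), and was called in KO chow (log2 2.16, SE 0.547, adjusted p = 0.00749). In WT CDAHFD (5, 8 and 7 counts) and KO CDAHFD (10, 5 and 7) it overlapped with WT chow and was not called. Cox6b2, the testis isoform of subunit VIb, had 9, 10, 2 and 4 counts in WT chow and 28, 42 and 27 in WT CDAHFD, where it was called (1.52, SE 0.471, adjusted p = 0.0167), with 28 and 15 in KO chow and 9, 13 and 19 in KO CDAHFD. Cox7a1 (18 to 53 counts) and Ndufa4l2 (45 to 113 counts) were called in no comparison, and the exons of Ndufa4l2 overlap those of Shmt2. Cox6a2 and Cox4i2 were called higher in KO chow under scaling by library size as well, together with Cox6b2.

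Atp5s, a coupling factor associated with complex V, had 6.87, 8.06, 7.17 and 7.52 CPM in WT chow, compared with 9.49 and 10.04 in KO chow, 9.61, 9.01 and 8.30 in WT CDAHFD, and 8.95, 10.3 and 9.80 in KO CDAHFD. No library of the other groups reached down to WT chow. It was called higher in KO chow (0.40, adjusted p = 0.0308) and KO CDAHFD (0.39, adjusted p = 0.0149) but not in WT CDAHFD (0.28, adjusted p = 0.068). Of the 10 assembly or associated factors, 2, 7 and 5 were lower. Ndufaf6 fell in all 3 (-0.63, -0.99 and -0.91), from 16.01 to 18.0 CPM in WT chow to 10.5 to 11.8 in KO chow and 7.69 to 9.81 in the CDAHFD libraries. Ndufaf5 had the smallest change of the complex I members in WT CDAHFD (-0.14, adjusted p = 0.619).

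On CDAHFD, KO and WT were compared directly. Of the 103 members, 0 were lower and 0 higher by edgeR's quasi-likelihood test, where 0.271% and 0.0864% of all genes were called lower and higher. At an unadjusted p under 0.05 there were 0 lower and 2 higher. The share of all genes under that unadjusted p was not counted here or below. DESeq2 called 1 member, and 250 genes in all. The members' median log2 difference was 0.10 against 0.0086 for all genes, with nuclear subunits between -0.15 and 0.31. Libraries of the 2 groups failed to overlap for 1 of the 75 nuclear subunits, Ndufb2 (named after its values were seen), at 7.54, 8.66 and 7.35 CPM in KO CDAHFD and 6.39, 6.74 and 7.10 in WT CDAHFD. mt-Nd3 had the largest difference (1.48, adjusted p = 0.264), with 73.9 CPM in the first KO CDAHFD library and 22.8 and 20.3 in the others against 12.2, 12.5 and 17.3 in WT CDAHFD.

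KO CDAHFD was compared with KO chow for the effect of the diet without hepatocyte PPARα. Cox7a2 alone was lower (-0.62, SE 0.167, adjusted p = 0.0481) and 0 members were higher, where 2.44% and 3.76% of all genes were called. At an unadjusted p under 0.05, 20 members were lower and 1 higher, and the share of all genes at that limit was not counted. The median was -0.21 against -0.0062 for all genes, and 74 of 75 nuclear subunits lay below the median gene. The libraries did not overlap for 15 of the 75. The share of all genes without overlap was not counted, and with so few libraries some genes separate by order alone. Whether 15 is more than order alone would give was not tested. The call on Cox7a2 was lost when any of 8 libraries was left out, and DESeq2 called 4 members. Over all genes DESeq2 called 1903 in this comparison. The median of the mitochondrial genes, -0.17, depended on the KO chow libraries. It was -0.54 without the first and 0.50 without the second of them. The median of the nuclear subunits relative to all genes, -0.21, also varied. It was -0.11 without the first KO chow library, -0.37 without the second and -0.093 without the third KO CDAHFD library.

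KO chow and WT CDAHFD, the groups that carry either change alone, share no libraries. In KO chow 4 members were higher and 0 lower than in WT CDAHFD, where 2.71% and 3.42% of all genes were called higher and lower. These were Cox7a2 (0.73, SE 0.167, adjusted p = 0.0247) and 3 factors for the assembly of complex I. Ndufaf2 had 15.7 and 11.4 CPM in KO chow against 9.30, 6.97 and 8.52 in WT CDAHFD (0.71, adjusted p = 0.0342), Ndufaf4 had 35.2 and 33.9 against 21.4, 22.8 and 25.9 (0.56, adjusted p = 0.0329), and Ndufaf1 had 32.1 and 27.1 against 20.8, 20.7 and 23.0 (0.46, adjusted p = 0.0428). In each of these the groups did not overlap. A further 36 members were higher at an unadjusted p under 0.05 (40 in all). The median was 0.30 against 0.0037 for all genes, and 54 of 75 nuclear subunits did not overlap between the groups. For neither count was the share over all genes determined, and all members share the same 2 KO chow libraries. The number called ranged from 0 to 9 when libraries were left out in turn, with 0 without the first KO chow library or the first or second WT CDAHFD library, and DESeq2 called 15. Over all genes DESeq2 called 2074 in this comparison. The mitochondrial genes alone had a median of 0.25, which was 0.59 without the first KO chow library and -0.02 without the second.

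The interaction asks whether the change with CDAHFD differed between KO and WT mice, as the log2 change in KO minus that in WT. It was called above 0 for 34 members and below 0 for 2, where 8.63% of all genes were above and 14.5% below. The median of the members was 0.56 against 0.012 for all genes. Among nuclear subunits 24 were called, 12 in complex I, 3 in complex II, 2 in complex III, 2 in complex IV and 5 in complex V, and 8 of the 13 mitochondrial genes were called. Values above 0 mean that the change with the diet was less negative in KO than in WT mice, be it a smaller fall, no fall or a rise. All 88 tested subunits had a log2 fold change below 0 in KO chow against WT chow. Ndufb3 had the smallest adjusted p (1.12, SE 0.224, adjusted p = 0.00308), with 35.2 and 28.3 CPM in KO chow and 33.3, 39.4 and 26.5 in KO CDAHFD against the fall from 56.6 to 75.9 to 30.4 to 32.5 in WT. Next came mt-Nd4 (1.03, adjusted p = 0.00613), Ndufb5 (0.69, adjusted p = 0.00783), Ndufv1 (0.75, adjusted p = 0.0131), Sdhd (0.62, adjusted p = 0.0133), Ndufaf6 (0.71, adjusted p = 0.014) and mt-Nd2 (0.88, adjusted p = 0.0154). Those below 0 were Cox6a2 (-4.03, adjusted p = 0.0107, from 2 counts in WT chow) and Cox6b2 (-2.23, adjusted p = 0.0378). The call on Cox6b2 was lost without any 1 of the WT CDAHFD libraries. With scaling by library size alone 4944 genes were called, 4268 of them below 0, and 5 members were called, 2 above 0 and 3 below. With the clock score as a covariate 4668 genes were called, 2802 of them below 0. Of the members, 61 were then above 0 and 1 below. The number called was 62 without the third KO CDAHFD library and 11 without the second KO chow or the second WT CDAHFD library, and 14, 17 and 18 without the first WT CDAHFD, the first KO CDAHFD or the second KO CDAHFD library.

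**Figure D4:**
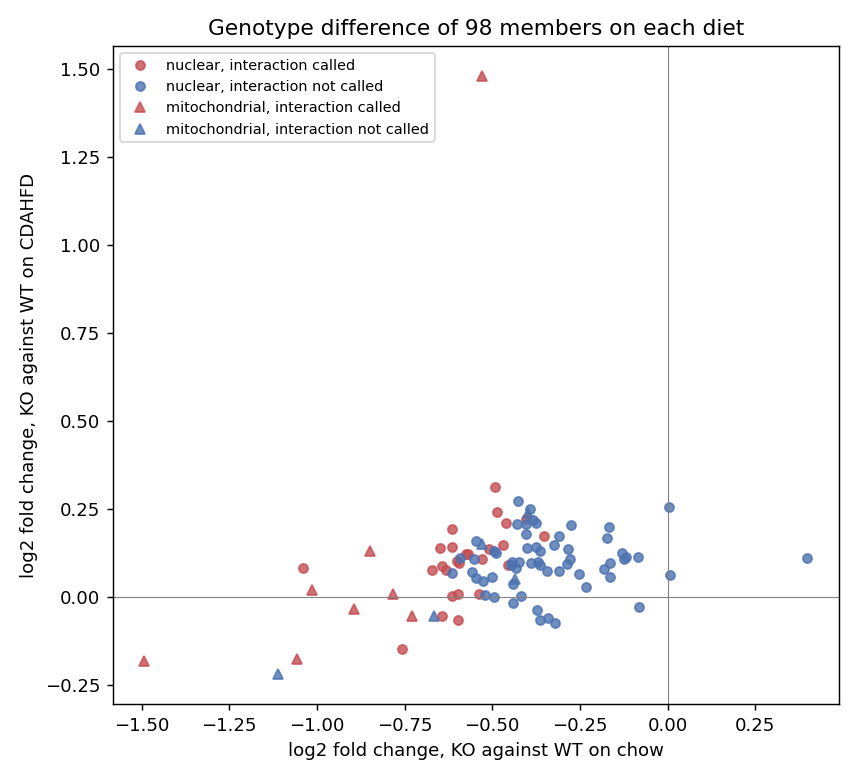
Log2 difference between KO and WT on chow (horizontal) and on CDAHFD (vertical) for the 98 tested members other than restricted isoforms, with circles for nuclear and triangles for mitochondrial genes and red for members called in the interaction. Most points lie left of 0 (median -0.44 for nuclear subunits) and close to 0 on the vertical axis (median 0.10), with mt-Nd3 at 1.48 above the rest.

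Genes that build and serve the complexes were counted from lists of assembly factors, electron carriers, the TCA cycle, the upkeep of mitochondrial DNA, regulators and carriers. The counts and medians of the first 6 lists are relative to the bulk of genes, and with scaling by library size alone their medians against WT chow lay between -0.09 and 0.32. Each was below the median of all genes, a position that a change of scaling hardly alters because it moves all genes alike. Of all genes, 17%, 25% and 25.4% were called lower and 22%, 26.1% and 26.9% higher. Under scaling by library size these 6 lists gave 0 to 3 lower and 2 to 9 higher genes each. Of all 17358 tested genes, that scaling called 8186, 10262 and 10870. Of those calls, 1149, 1170 and 1095 were lower and the rest higher. Complex I assembly factors were lower for 4 of 15 in KO chow and 10 of 15 in each CDAHFD group (medians -0.19, -0.65 and -0.45), led by Ecsit (-0.84, -0.99 and -1.01). Assembly factors of complexes II to V were lower for 6, 22 and 17 of 30 (medians -0.19, -0.46 and -0.42). Cox11, which delivers copper to complex IV, was lower in KO chow and WT CDAHFD (-0.83 and -0.98), whereas Cox19, another copper factor, was higher in KO chow (0.67, adjusted p = 0.00219). Electron carriers and coenzyme Q synthesis were lower for 6, 12 and 10 of 18 (medians -0.30, -0.55 and -0.64). Etfdh, which passes electrons from fatty acid oxidation to ubiquinone, had 354, 395, 458 and 417 CPM in WT chow and 172 and 184 in KO chow, 253, 240.3 and 263 in WT CDAHFD, and 124, 123 and 97.3 in KO CDAHFD. Unlike the subunits it differed between KO and WT on CDAHFD (-1.13, SE 0.127, adjusted p = 0.00127), with KO below WT on both diets. TCA cycle genes were lower for 5, 8 and 10 of 14 and higher for 2, 2 and 1, with Fh1, fumarase, at -1.09 and -1.07 in WT CDAHFD and KO CDAHFD and Idh2, the NADP-dependent isocitrate dehydrogenase, at 0.77, 0.91 and 1.06.

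Genes for the upkeep and transcription of mitochondrial DNA were lower for 6, 15 and 17 of 26 (medians -0.16, -0.46 and -0.41), and 0 were higher. Of all genes, 17%, 25% and 25.4% were called lower. Under scaling by library size alone 1, 2 and 2 were lower and 6 were higher each time. Of all 17358 tested genes, that scaling called 8186, 10262 and 10870, of which 1149, 1170 and 1095 were lower and the rest higher. Tfam, which packages and transcribes mitochondrial DNA, had 51.5, 53.8, 63.8 and 62.0 CPM in WT chow, against 48.6 and 48.8 in KO chow, 35.4, 36.3 and 35.01 in WT CDAHFD, and 34.3, 37.1 and 34.8 in KO CDAHFD. The CDAHFD libraries lay together below both chow groups (-0.70 in each, adjusted p = 6.59e-05 and 5.77e-05, but -0.13 and -0.09 with scaling by library size alone), and KO chow was not called (-0.25, adjusted p = 0.0935). Lrpprc, which stabilises mitochondrial mRNA, was lower in each group (-0.50, -0.85 and -0.99). Of the regulators of OXPHOS genes, 6, 7 and 8 of 18 were lower and 0, 1 and 0 higher, which became 3, 2 and 3 lower and 4, 9 and 8 higher with scaling by library size alone. The coactivators Ppargc1a and Ppargc1b and the receptor Esrra were called in no comparison with WT chow. Esrrg, the estrogen-related receptor γ, had 2.91, 3.93, 2.53 and 2.06 CPM in WT chow, compared with 0 and 0.121 in KO chow, 0.717, 0.835 and 1.18 in WT CDAHFD, and 0.0485, 0.107 and 0.0476 in KO CDAHFD. KO libraries were below WT libraries on both diets, with differences of -5.43 on chow (SE 0.65, adjusted p = 3.4e-05) and -3.71 on CDAHFD (SE 0.564, adjusted p = 0.0118).

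Of 8 nucleotide carriers and uncoupling genes, 0 were lower and 3 higher in KO chow, and 2 were lower and 3 higher in each CDAHFD group. The shares of all genes were 17%, 25% and 25.4% lower and 22%, 26.1% and 26.9% higher. Scaled by library size alone, 0 were lower and 7, 6 and 7 higher. Of all 17358 tested genes, 8186, 10262 and 10870 were then called, of which 1149, 1170 and 1095 were lower and the rest higher. Slc25a4, the ADP/ATP carrier isoform known from heart and muscle, had 5.86, 5.63, 6.27 and 4.77 CPM in WT chow and 18.1 and 16.3 in KO chow, 19.9, 19.4 and 17.8 in WT CDAHFD, and 22.0, 24.6 and 23.9 in KO CDAHFD. It rose by 1.61, 1.75 and 2.06 (SE 0.125, 0.114 and 0.114, adjusted p = 1.16e-06, 1.25e-07 and 3.97e-08). Atpif1, the inhibitor of ATP hydrolysis by complex V, rose from 8.27, 9.38, 8.54 and 7.66 CPM in WT chow to 17.6 to 24.0 in the other 8 libraries (1.15, 1.16 and 1.32), while the subunits it binds were lower or not called. Ucp2, an uncoupling protein that macrophages also express, rose to 59.99 and 80.3 CPM in KO chow and to 151 to 192 in the CDAHFD libraries from 23.0 to 37.0 in WT chow (1.24, 2.53 and 2.39). All 3 also rose with scaling by library size alone.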

How the data were processed

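The authors isolated total RNA from liver, selected poly-A RNA, made non-directional libraries and deposited 1 table of raw counts per gene for 12 libraries. Per the submitters' processing notes, FastQC 0.11.5, STAR 2.7.3a, DESeq2 and build GRCm38 were used. The counting program and its annotation are not given in the sources used here. The table's Ensembl identifiers were matched to GENCODE M21 (52081 of 55357 identifiers, 99.691% of counts) for symbols, types, exons and transcripts, and to RefSeq for promoters. Protein sequences were not used here.

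Groups came from the labels. The second KO chow library, numbered so in its title, is numbered 3 in its description and count column. Counts were tested with edgeR 4.0.16 (R 4.3.3) by the quasi-likelihood test over all 12 libraries with 1 mean per group, TMM scaling, edgeR's filter on low counts (17358 genes kept) and Benjamini-Hochberg adjustment. CPM are counts per 1000000 of the TMM-scaled library size. Exact intervals have a level of 95% and cover counting error only. With 29906785 to 43551003 counts per library, precision was set by the small number of libraries, 2 in KO chow. The script was tested on simulated data.

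The members and gene lists were chosen with earlier results of these data known. Named were the mitochondrial genes, the 3 largest called changes per complex and comparison among members whose groups did not overlap, called members against the majority, members called between KO and WT on CDAHFD, between KO chow and WT CDAHFD or in the interaction (up to 10 by adjusted p), restricted isoforms, the Sdh and Atp5g genes and the smallest change per complex in WT CDAHFD. From other lists the 2 largest called changes per comparison and Ppargc1a, Ppargc1b, Esrra, Tfam and Ppara were taken. Same-numbered libraries of different groups did not deviate together (15 pairs, correlations -0.387 to 0.349, 4 over 0.1), so numbers were not treated as pairs. No 2 libraries of 1 group were duplicates (13 pairs), and pairs across groups were not compared. Alternatives were other scalings (DESeq2 1.42.0 size factors, library size), no mitochondrial rows, no filter, a score of clock genes as covariate, the replicate number as block, a fit of the compared groups alone, DESeq2, and each library left out.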

Additional observations from a re-analysis of the deposited data

Results flagged for a closer look

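In WT chow, the group of 4, a library stood apart for 4 named members and 1 ratio, with a gap to the nearest library that took more of the group's range than Dixon's 95% value allows. These were the second library for Cox7a2 (172 CPM), Ndufa4l2 (3.31 CPM) and Atp5k (71.2 CPM), the first library for Atp5g2 (92.6 CPM), and the last library for the ratio of mitochondrial to nuclear subunit CPM (5.50). Such a gap arises by chance in about 1 in 20 groups, and 61 groups were looked at.

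The change with CDAHFD differed between KO and WT mice for 36 members by the interaction in edgeR's quasi-likelihood test. Among those named, the value was 1.12 for Ndufb3, 0.69 for Ndufb5, 0.75 for Ndufv1, 0.81 for Ndufb10, 0.71 for Ndufaf6, 0.62 for Sdhd and 0.61 for Sdha. For mitochondrial genes it was 1.03 for mt-Nd4, 0.88 for mt-Nd2, 0.86 for mt-Co1, 0.98 for mt-Nd6, 0.79 for mt-Cytb, 1.31 for mt-Nd5, 0.67 for mt-Nd1 and 2.01 for mt-Nd3. Those below 0 were Cox6a2 at -4.03 and Cox6b2 at -2.23. Some of these calls depended on single libraries. Those on Cox6b2 and mt-Nd1 were lost without any 1 of the WT CDAHFD libraries. Those on mt-Nd3, mt-Nd5 and mt-Cytb were lost without the first or the second WT CDAHFD library. Those on mt-Nd6 and mt-Co1 were lost without the second. For mt-Nd3 the first KO CDAHFD library held 73.9 CPM against 22.8 and 20.3 in the other 2, and for Cox6a2 WT chow held 2 counts in all.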

How the results depend on the processing

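With scaling by library size alone, members called against WT chow numbered 14 rather than 54 in KO chow and, with CDAHFD, 28 rather than 91 in WT and 21 rather than 88 in KO mice, and 0 between KO CDAHFD and KO chow, 1 between KO chow and WT CDAHFD and 5 in the interaction (2 above 0 and 3 below). Under it Atp5g2 (0.11) and Cox7a2l (0.24) turned direction in WT CDAHFD, and Atp5g2 (0.19) and Sdhc (0.063) in KO CDAHFD. DESeq2 size factors left 0 between KO CDAHFD and KO chow. Without the filter, 1, 4 and 7 members were called between KO CDAHFD and WT CDAHFD, between KO CDAHFD and KO chow, and between KO chow and WT CDAHFD. The clock score as covariate gave 4 and 19 in the latter pair of comparisons and 62 in the interaction (1658, 2524 and 4668 of all genes). The groups of the comparison alone gave 0 and 15, and DESeq2 gave 1, 4 and 15 in the 3 comparisons. Over all genes the former called 581 and 1985, and DESeq2 called 250, 1903 and 2074. With the replicate block, 33 members were called in KO chow, 1 between KO chow and WT CDAHFD and 10 in the interaction. The libraries share only a number, and the block left the other counts within 1.5 times. With each library left out in turn, members called against WT chow ranged from 18 to 62 in KO chow and, with CDAHFD, from 86 to 92 in WT and 80 to 89 in KO mice, with 0 to 0 between KO CDAHFD and WT CDAHFD, 0 to 5 between KO CDAHFD and KO chow, 0 to 9 between KO chow and WT CDAHFD and 11 to 62 in the interaction. Left out alone, the second KO chow library gave the lowest value in KO chow, and the remaining KO chow library was then assumed to vary like the other groups. The causes of these changes were not tested. Of named genes, 818 results kept direction and call under the other alternatives, 73 lost the call, 20 gained one and 4 turned direction. With 1 library left out of a group of 3 or 4, at most 14 lost the call, without the second WT CDAHFD library.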
